A study of Mus musculus with 4 samples.

Results

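The 9 genes described here encode proteins of the borders at which endothelial cells meet: Pecam1, Cdh5, Cldn5, Esam, F11r, Tjp1, Ocln, Cdh13 and Gja1. They were chosen by name, not by a measured value, though with earlier results of these data known. All 9 are among the 16408 nuclear genes listed in the files. They were measured in single cells of the mouse aorta by SORT-seq, a plate method with 1 sorted cell per well, in which reads come from the 3′ end of a transcript and each captured RNA molecule is counted once by its unique molecular identifier (UMI). Of 1536 wells, 441 held a cell by the filter used here (at least 1000 UMIs from nuclear genes, and at most 25% of UMIs from mitochondrial genes).

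The cells came from 4 mice on a C57BL/6 background, 1 plate each, and were sorted as CD31+, CD45- and negative for the dead-cell dye TO-PRO-3. The 2 mice labelled EC-KO carry the genotype Epas1fl/fl, Cdh5Cre/+ and gave 157 and 98 cells. The 2 mice labelled EC-WT carry Epas1fl/fl, Cdh5+/+ and gave 114 and 72 cells. All 4 therefore have the floxed Epas1 allele, and only the EC-KO mice have the Cre recombinase, which is active after tamoxifen. By the study's account, both groups received tamoxifen starting at 6 weeks of age, with the analysis 2 weeks after that. Epas1 encodes the hypoxia-inducible transcription factor HIF-2α. Expression of the Cre is driven by the promoter of Cdh5, itself one of the 9 genes, and CD31, the antigen of the sort, is the protein of Pecam1. The presence of Cre and the loss of Epas1 cannot be told apart in this design.

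Endothelial cells are held together by adherens junctions, built on VE-cadherin, and by tight junctions, whose claudins and occludin set how leaky the border is. Around these lie immunoglobulin-type adhesion proteins, which also guide leukocytes through the vessel wall, and gap junctions, channels of connexin proteins that let ions and small molecules pass between neighbouring cells. In large arteries this border is the barrier that lipoproteins and leukocytes must cross to enter the wall.

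The genes lie on 8 chromosomes of the GRCm38 build. Cdh5, the gene of VE-cadherin, is at chr8:104101625-104144511 and Cdh13 at chr8:118283733-119324921. Cldn5, a short gene of 1416 bases, is at chr16:18776847-18778262, Pecam1 at chr11:106654217-106750628 and Esam at chr9:37528078-37538319. F11r is at chr1:171437535-171464603, Tjp1 at chr7:65296165-65527781, Ocln at chr13:100496507-100552718 and Gja1 at chr10:56377330-56402513. No exon of another annotated gene overlaps the last 1000 bases of any of the 9, the end that SORT-seq reads.

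Because HIF factors bind DNA at the core letters ACGTG or GCGTG, the promoters of the members were searched for these letters on both strands. RefSeq promoter windows (250 bases before to 50 after the start of transcription, build GRCm38.p6) were found for 5 members: Cldn5, F11r, Tjp1, Ocln (2 overlapping windows) and Gja1. Pecam1, Cdh5, Esam and Cdh13 were not searched. At least 1 match lay in 5 of the 6 windows, those of F11r, Tjp1, Ocln and Gja1, and none in the Cldn5 window. The match in the second Ocln window lies in the first as well, so by gene it was 4 of 5 members. Of 32851 promoter windows of that length, 43.8% hold at least 1 match. A match is a description of the letters only. The matches nearest to the start in F11r, Tjp1 and Gja1, and the match in the first Ocln window farther upstream, follow here on the strand of the gene, with the core or its reverse complement in capitals, since they can be set beside the values of the same genes in the Epas1 comparison. The Tjp1 window lies inside the gene as annotated above, at an internal start, and not at the outer end of the gene.
F11r, chr1:171437510-171437538: gccgcccaccggGCGTGgagagaaaggcg
Tjp1, chr7:65371230-65371258: ccggcaggttttGCGTGgccgcctgagtt
Ocln, chr13:100552821-100552849: cccttctctccgCACGCccccgcccctct
Gja1, chr10:56377191-56377219: cctgctcagctcCACGCtcgccagcctcc

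The libraries differed in ways that bear on these genes. The kept cells held 1088901 and 851118 nuclear UMIs in EC-KO mice 1 and 2 and 648977 and 566088 in EC-WT mice 1 and 2. EC-KO mouse 1 had 10.5 reads per UMI against 18.6 to 22.1 in the others, and 7.21% of its UMIs on Rn45s (ribosomal RNA) against 3.71% to 4.02%. The file names of EC-KO mouse 2 and EC-WT mouse 1 carry the same ID, and the other 2 mice each have another. The form of the ID is that of a flow cell, but no label says what it is, so the 2 mice are called the pair with a shared ID. The summed level of 11 smooth muscle genes was 4890 and 6791 counts per 1000000 nuclear UMIs (CPM) in the EC-KO mice and 974 and 1313 CPM in the EC-WT mice, and 8 fibroblast genes summed to 3663 and 2258 CPM against 1382 and 1947 CPM. A set of 19 cells with at least 2% of UMIs on smooth muscle genes is called smooth muscle-rich here (10 and 5 in EC-KO mice, 2 and 2 in EC-WT mice). All 14 endothelial markers outside the members were detected, at 5583 to 6808 CPM in sum, and immune markers summed to 42.4 CPM at most, with Cd3e, Cd79a, Adgre1, C1qa and Csf1r at 0. Epas1 itself, read at its 3′ end, was at 2930 and 3148 CPM in the mice labelled EC-KO and at 3324 and 2351 CPM in those labelled EC-WT (log2 fold change 0.13 ± 0.22 SE, adjusted p = 0.95 by edgeR), so its UMIs were not lower under the EC-KO label. The deposited files do not show whether those UMIs come from a deleted transcript, and each direction below is that between the libraries as labelled. The study's methods also give more analysed cells for EC-WT than for EC-KO mice, whereas the kept cells here are 186 from EC-WT and 255 from EC-KO mice; the study's quality filter was not rebuilt. The study examined the deletion in this mouse line by PCR of endothelial RNA and by staining, which are not analysed here, and whether the labels of these 4 libraries are right was not tested.

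Pecam1 was by far the most abundant of the 9 genes. It encodes PECAM-1, or CD31, an immunoglobulin-type protein that joins endothelial cells to each other and takes part in their sensing of flow. Its level was 4407 and 6027 CPM in EC-KO mice 1 and 2 and 6045 and 4596 CPM in EC-WT mice 1 and 2, with a mean of 5269 ± 889 CPM (SD, n = 4 mice). All 4 mice lay within 1.37-fold of each other, with 1 mouse of each group at either end. CPM here is scaled to the nuclear UMIs of the kept cells of a mouse, and since 1 UMI stands for the 3′ end of 1 transcript it is not divided by gene length. In each mouse Pecam1 made up 58.8% to 69.1% of the UMIs of the 9 genes together.

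A group of 5 genes followed, with Pecam1 8.53-fold above the first of them, and their order was not resolved. Cdh13 (T-cadherin, a cadherin anchored in the membrane by a lipid and a receptor for adiponectin) had a mean of 617 ± 212 CPM, Esam (an endothelial immunoglobulin-type protein of tight junctions) 600 ± 87.6 CPM, Cldn5 (claudin-5, the main sealing protein of endothelial tight junctions) 497 ± 60.4 CPM, Cdh5 (VE-cadherin) 468 ± 109 CPM and F11r (JAM-A, a further immunoglobulin-type junction protein) 467 ± 88.6 CPM (SD, n = 4 mice each). The ranges of every pair of neighbours in this order overlapped, although Esam was above Cldn5 in 4 of 4 mice. Cdh13 varied most among the 5, at 629 and 466 CPM in the EC-KO mice and 461 and 913 CPM in the EC-WT mice. EC-WT mouse 2 was the highest, followed by EC-KO mouse 1, and the other 2 lay close together. A single cell of EC-WT mouse 2 held 102 of its 517 Cdh13 UMIs. By the mean of per-cell CPM, Cdh13 was at 548 and 452 CPM in EC-KO mice 1 and 2 and at 282 and 581 CPM in EC-WT mice 1 and 2.

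The last 3 genes were lower, each below the range of the one before it. Tjp1, which encodes the scaffold ZO-1 that ties junction proteins to actin, was at 185, 176, 202 and 191 CPM in EC-KO mice 1 and 2 and EC-WT mice 1 and 2 (mean 188 ± 10.8 CPM), the smallest relative spread of the 9. Ocln, the gene of occludin, was at 18.4, 14.1, 10.8 and 26.5 CPM in the same order, from 54 UMIs in all. Gja1, the gene of connexin 43, had 20 UMIs in 441 cells, 8, 2, 5 and 5 in the 4 mice, or 2.35 to 8.83 CPM. At these counts the levels of Ocln and Gja1 are set by a few molecules in each mouse.

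**Figure D1:**
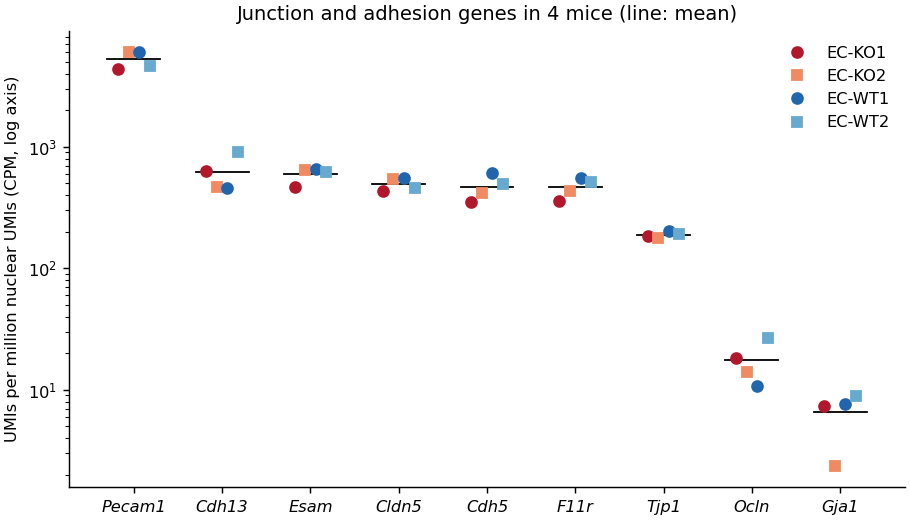
Level of each member in each mouse in CPM on a log axis; points are mice (red and orange EC-KO, blue and light blue EC-WT), the line is the mean of 4. Pecam1 (mean 5269 CPM) stands apart above 5 genes with means from 467 to 617 CPM, and Tjp1, Ocln and Gja1 lie below them.

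Detection in single cells was highest for Pecam1 and lowest for Ocln and Gja1. Pooled over the mice, Cdh13 and Cldn5 were found in fewer cells than Cdh5 and F11r, although the order of their mean levels was not resolved. In EC-KO mouse 1, Cdh13 was found in more, 122 of 157 cells against 121 for Cdh5 and 119 for F11r. Pecam1 had at least 1 UMI in 432 of 441 cells (94.9% to 100% by mouse), Esam in 85.9%, Cdh5 in 84.8%, F11r in 79.6%, Cdh13 in 68.3%, Cldn5 in 65.8%, Tjp1 in 59.6%, Ocln in 9.30% and Gja1 in 3.17%. After every cell was thinned to 1000 UMIs, which no kept cell lay below, Pecam1 was still found in 89.8% to 97.4% of the cells of a mouse, but Cdh5 in only 26.1% to 54.4%, Cldn5 in 26.4% to 37.8% and Tjp1 in 11.2% to 18.5%. Among the smooth muscle-rich cells, which should lack most of these genes, 14 of 19 had a Pecam1 UMI (73.7%), 7 of 19 one of Cdh5, Esam or F11r each (36.8%) and 12 of 19 one of Cdh13 (63.2%), at a median of 5385 UMIs per cell against 5582 in the other cells. In those 19 cells Pecam1 reached 891 CPM pooled over the mice against 5500 CPM in the other cells, whereas Cdh13 was at 640 against 599 CPM. In the smooth muscle-rich cells of EC-KO mice 1 and 2 and EC-WT mice 1 and 2, Pecam1 was at 691, 782, 2306 and 2058 CPM. Cdh13 was at 640, 605, 0 and 1029 CPM in the same order, and each EC-WT mouse had only 2 such cells.

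Cldn5 and Cdh13 were spread less evenly over cells than Cdh5, Esam, Tjp1 and F11r. Outside the smooth muscle-rich cells, Cldn5 had no UMI in 138 of 422 cells, 2.25 times the 61.4 cells that would be at 0 if every cell of a mouse held the gene at the share of the whole mouse, and Cdh13 had none in 133 cells, 2.47 times the 53.8 of that reckoning. For Cdh5 the same ratio was 0.83, for Esam 1.01, for Tjp1 1.06 and for F11r 1.17. Across 850 genes with at least 100 UMIs in every mouse and at least 5 cells expected at 0 the median ratio was 1.27. The highest count of Cldn5 in a single cell was 30 or more in each mouse (30, 38, 30 and 50), while its median cell had 1 or 2. Pecam1 had no UMI in 4 of those 422 cells, all from EC-KO mouse 1, against 0.084 reckoned. These are descriptions of these cells, without a test.

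The comparison of the genotype groups asks whether loss of endothelial Epas1 goes with a change in these genes. None of the 8 members that passed edgeR's filter on low counts differed at an adjusted p of 0.05, and none was called by DESeq2 either; over all genes the edgeR quasi-likelihood test called 10 of 8385 (0.119%), and 553 had an unadjusted p under 0.05, among them 2 members. Gja1 did not pass the filter. The mice are separate animals, and the study describes the controls as littermates lacking Cre, matched for age and sex. The p-values rest on 2 and 2 mice, and the error that edgeR used for a gene was in large part that shared over all genes. In a simulation at these library sizes, 55 of 100 genes changed by 1 on the log2 scale and 99 of 100 changed by 2 were recovered, with 21 unchanged genes also called, so that smaller differences in the members could have been missed.

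Cdh5 and F11r were the 2 members with an unadjusted p under 0.05, and both were lower in the EC-KO mice. Cdh5 was at 353 and 421 CPM in the EC-KO mice and at 607 and 493 CPM in the EC-WT mice, so the groups did not overlap. The log2 fold change was -0.48 ± 0.19 SE (95% interval -0.89 to -0.063, adjusted p = 0.70 by edgeR). F11r was at 359 and 434 CPM against 558 and 518 CPM, again without overlap, with a log2 fold change of -0.41 ± 0.18 SE (interval -0.80 to -0.015, adjusted p = 0.75 by edgeR). Both EC-KO mice lay below both EC-WT mice in 1737 of the 8385 genes tested (20.7%), and among the members also in Tjp1 and in Gja1, whose 20 UMIs give no resolution. Within the pair with a shared ID, EC-KO mouse 2 minus EC-WT mouse 1, the difference was -0.53 for Cdh5 and -0.37 for F11r on the log2 scale. With the smooth muscle-rich cells left out it was -0.39 ± 0.19 (SE) for Cdh5 and -0.31 ± 0.19 (SE) for F11r over the 4 mice. Without EC-KO mouse 1, the library that stands apart, the values were -0.38 and -0.30. The part of the fibroblast RNA in these differences was not tested. Whether the Cre under the Cdh5 promoter bears on the Cdh5 counts was not tested.

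The other members had smaller differences or wider intervals. The log2 fold changes were 0.00 for Pecam1 (95% interval -0.51 to 0.51), -0.020 for Cldn5 (-0.44 to 0.40), -0.17 for Esam (-0.59 to 0.25), -0.085 for Tjp1 (-0.50 to 0.33), -0.28 for Cdh13 (-0.89 to 0.34) and -0.12 for Ocln (-1.28 to 1.04). The Cdh13 value rested on EC-WT mouse 2, without which it was 0.27. On the deposited read counts in place of UMIs the value of Cldn5 was -0.44 and that of Cdh13 -0.64, and neither was called. Within the pair with a shared ID the values were -0.0092, -0.039, -0.041, -0.20, 0.013 and 0.32 in the same order. In sums over the cells of a mouse, fewer cells of a type and less RNA per cell cannot be told apart.

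**Figure D2:**
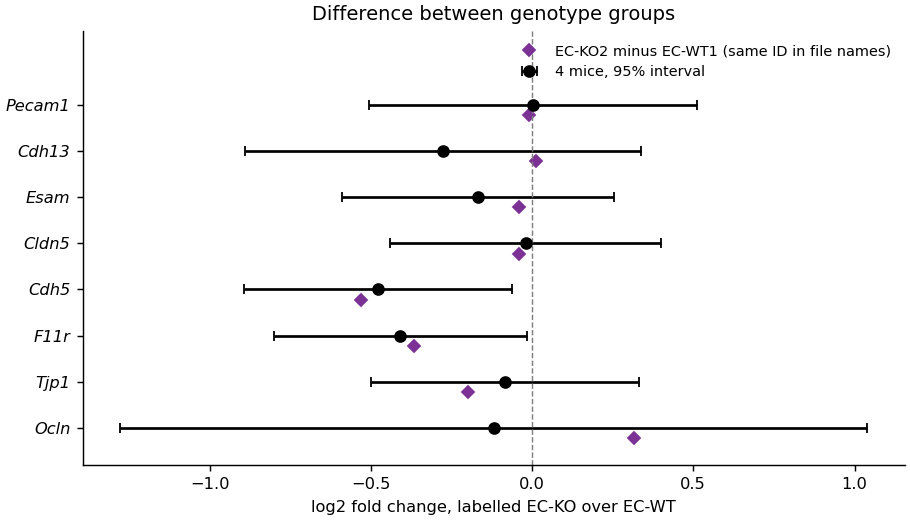
Log2 fold change of each tested member between the libraries labelled EC-KO and EC-WT (x axis), with 95% intervals from edgeR in black and the difference between the 2 mice with a shared ID in their file names as purple diamonds. Only the intervals of Cdh5 and F11r leave out 0 before adjustment, and neither passed the adjusted threshold.

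A wider list of 43 junction and border genes, of which 39 are in the files, held no called gene either. Of 29 tested, 0 were called higher and 0 lower, 2 had an unadjusted p under 0.05 by edgeR and 0 were called by DESeq2, and the median log2 fold change was 0.016 against -0.0053 over all genes. Those 2, named here after their values were seen, both had positive differences: Jam3 (JAM-C, 1.58 ± 0.53 SE, adjusted p = 0.57) and Vcl (vinculin, which links junctions to actin, 0.49 ± 0.20 SE, adjusted p = 0.70). The 10 most abundant were Ctnnb1 and Ctnna1 (β- and α-catenin, which link cadherins to actin), Ctnnd1 (p120-catenin, which keeps cadherins at the surface), Bcam (a laminin receptor), Cgnl1 (paracingulin, a junction scaffold), Jam2 (JAM-B), Icam2 (a border ligand of leukocyte integrins), Gja4 and Gja5 (connexins 37 and 40, the arterial connexins) and Lsr (angulin-1, at the corners where 3 cells meet). Gja5 had the largest difference of these, 247 ± 54.5 CPM in EC-KO mice and 337 ± 136 CPM in EC-WT mice (SD, n = 2 each), with a log2 fold change of -0.43 ± 0.27 SE (adjusted p = 0.83). Its call without EC-WT mouse 2 comes from a fit with 1 EC-WT mouse. The spread there is that of the EC-KO mice alone, so nothing is read from it. The other 9 lay between -0.22 (Bcam) and 0.24 (Gja4).

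The members differed most between kinds of cells within the mice. A set of 24 cells (6, 3, 8 and 7 in EC-KO mice 1 and 2 and EC-WT mice 1 and 2) carried UMIs of Cd36, a fatty acid transporter, and Fabp4, a fatty acid-binding protein; they had at least 3 such UMIs and at least 0.2% of their UMIs on these 2 genes. They are called lipid-handling cells here and were compared with the 398 other cells outside the smooth muscle-rich set, mouse by mouse. Endothelial marker genes summed to 9709 to 14051 CPM in them against 5800 to 6989 CPM, with 14 of 14 detected. The 10 immune markers were at 0. Fibroblast genes were at 182 to 451 against 1443 to 3061 CPM, and smooth muscle genes at 333 to 1504 against 272 to 914 CPM. Lymphatic genes were at 0 to 564 against 48.04 to 74.49 CPM. Of these, Prox1, Pdpn and Ccl21a were at 0 in all kept cells, and Mmrn1 was at 0 in the set. The part of the lymphatic and smooth muscle RNA in the differences was not tested. Their median depth was 5274 UMIs per cell against 5582. By mouse, in the order above, it was 5727.5, 8781, 2408.5 and 4917 against 5855, 7334.5, 3863 and 5992, so depth was not equal within each mouse.

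In these cells Pecam1, Cldn5 and Cdh13 fell, while Cdh5 and Esam were lower in none of the 4 mice. Of the 8 members tested, 3 were called lower and 0 higher by edgeR with the mouse as a block, where 353 of 6376 genes (5.54%) were called lower, 187 (2.93%) higher and 540 (8.47%) in either direction. DESeq2 called the same 3 members with larger adjusted p-values, 2.2e-06 for Pecam1, 0.018 for Cldn5 and 0.0018 for Cdh13. Ocln, with 1 UMI in the 24 cells, did not pass the filter. The error that edgeR used in this comparison was almost wholly that shared over all genes. The small adjusted p-values below thus carry little of a gene's own spread between mice, and they rest on 3 to 8 lipid-handling cells of a mouse.

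Cldn5 had the largest fall of the tested members, with an interval that overlaps that of Cdh13. It was at 279, 0, 30.3 and 254 CPM in the lipid-handling cells of EC-KO mice 1 and 2 and EC-WT mice 1 and 2, and at 467, 578, 587 and 449 CPM in the other cells of the same mice. It was lower in 4 of 4 mice, and the 2 sets of values did not overlap. The log2 fold change was -2.08 ± 0.35 SE (95% interval -2.77 to -1.39, adjusted p = 2.4e-07 by edgeR). Only 5 of the 24 cells (20.8%) had a Cldn5 UMI, against 279 of 398 (70.1%), and in EC-WT mouse 2 all 10 UMIs came from 1 cell. In EC-KO mouse 2, 0 of 26590 UMIs allows a level of up to 113 CPM.

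Cdh13 fell by a like amount, from 636, 461, 484 and 964 CPM in the other cells to 403, 113, 90.9 and 203 CPM in the lipid-handling cells. It was lower in 4 of 4 mice, with 10 of 24 cells (41.7%) holding a UMI against 70.1%. The log2 fold change was -1.94 ± 0.32 SE (interval -2.58 to -1.31, adjusted p = 1.1e-07 by edgeR).

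Pecam1 fell to 2481, 2557, 2878 and 2968 CPM, from 4767, 6845, 6245 and 4805 CPM, although every cell had been sorted on its protein and all 24 held its UMIs. The values in the lipid-handling cells of the 4 mice lay within 1 narrow band, below every value of the other cells. The log2 fold change was -1.30 ± 0.19 SE (interval -1.67 to -0.94, adjusted p = 3.1e-10 by edgeR). All 3 genes remained called in each of the 10 alternatives run, each mouse left out included, with log2 fold changes from -2.71 to -0.88. Over all genes, 944 of 6376 (14.8%) were lower in 4 of 4 mice.

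Cdh5 was at 869, 639, 1303 and 761 CPM in the lipid-handling cells against 359, 453, 573 and 486 CPM in the others, higher in 4 of 4 mice, and its UMIs were found in 24 of 24 cells. The log2 fold change of 0.65 ± 0.24 SE (interval 0.18 to 1.13) did not pass the threshold (adjusted p = 0.076 by edgeR). Esam was likewise found in 24 of 24 cells, at 682, 1203, 1091 and 1217 CPM against 488, 646, 645 and 574 CPM, higher in 4 of 4 mice, with a log2 fold change of 0.55 ± 0.23 SE (adjusted p = 0.14 by edgeR). Of all genes tested, 551 (8.64%) were higher in 4 of 4 mice. Both calls turn on the scaling: TMM, the normalization used, sets these values 0.25 lower than library size alone, and by library size alone Cdh5 (0.91, adjusted p = 0.0050) and Esam (0.81, adjusted p = 0.011) passed. The median of all genes stood at -0.25 under TMM.

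The remaining members gave smaller or less certain differences. F11r was at 434, 338, 606 and 431 CPM in the lipid-handling cells and at 380, 480, 556 and 533 CPM in the others, with overlap and no common direction (log2 fold change -0.37 ± 0.28 SE, adjusted p = 0.55 by edgeR). Tjp1 was at 434, 301, 424 and 152 CPM against 180, 180, 188 and 194 CPM, higher in 3 of 4 mice (0.51 ± 0.36 SE, adjusted p = 0.50), and in EC-KO mouse 2 its 8 UMIs came from 1 cell. Gja1 had 7 UMIs in 3 of the 24 cells, 4 of them in 1 cell of EC-WT mouse 1, and 10 UMIs in 9 of the 398 other cells. Pooled over the mice that is 53.3 against 3.54 CPM, and in EC-KO mouse 2 and EC-WT mouse 2 its UMIs in the set were at 0. Gja1 passed the filter on low counts in this comparison alone, through the small lipid-handling sets in which its CPM is high, so its fitted change is not given.

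**Figure D3:**
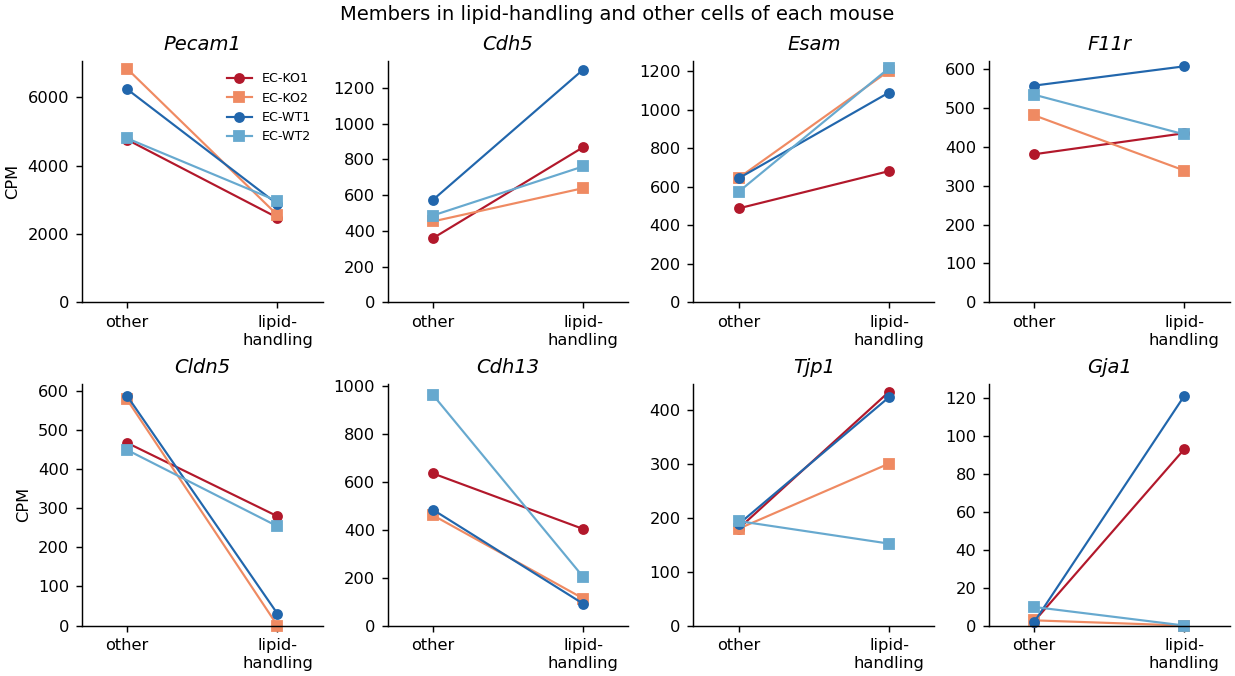
Level (CPM, linear axes from 0) of 8 members in the other cells (left) and the lipid-handling cells (right) of each mouse, with a line for each mouse. Pecam1, Cldn5 and Cdh13 are lower in the lipid-handling cells of all 4 mice, Cdh5 and Esam higher in all 4, and F11r has no common direction.

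The mix of junction transcripts in these cells therefore differed from that of their neighbours. Pecam1 made up 43.5% to 49.6% of the UMIs of the 9 genes in the lipid-handling cells of a mouse, against 59.7% to 70.8% in the other cells. Cdh5 made up 12.4% to 19.9% against 4.69% to 6.16%, and the ranges did not overlap for either gene. The shares are tied, since they add up to the whole and Pecam1 makes up most of it in the other cells, and the level of Cdh5 itself was not called. Epas1 was also lower in the set, with a log2 fold change of -0.76 ± 0.19 SE (adjusted p = 0.0017 by edgeR).

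The wider list also held genes that were lower and genes that were higher in the lipid-handling cells. Of 27 genes tested, 8 were called lower and 2 higher, where 5.54% and 2.93% of all genes were, with a median log2 fold change of -0.45 against -0.25 over all genes. Both arterial connexins fell: Gja4 had 3 UMIs in the 24 cells (22.9 CPM pooled) against 323 CPM in the others, and Gja5 45.7 against 308 CPM, with log2 fold changes of -4.01 ± 0.60 and -3.07 ± 0.52 SE (adjusted p = 1.7e-09 and 1.8e-07 by edgeR). Cgnl1, the scaffold, was at 93.1, 75.2, 60.6 and 50.7 CPM in the lipid-handling cells of the 4 mice and at 893, 958, 955 and 923 CPM in the others (-4.01 ± 0.37 SE, adjusted p = 4.7e-24). Lsr, the angulin, fell from 246.4 to 22.9 CPM pooled (-3.71 ± 0.64 SE, adjusted p = 3.0e-07).

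Nectin1 (an adherens junction protein, listed under its older symbol Pvrl1) and Cldn15 (claudin-15, a pore-forming claudin) had no UMI in any of the 24 cells. Against a floor of 3 UMIs over the set, 22.9 CPM, Nectin1 was at least 4.27-fold lower and Cldn15 at least 3.12-fold lower than the 97.6 and 71.4 CPM of the other cells. Heg1, a cadherin-associated receptor, was also called lower (-2.54 ± 0.63 SE, adjusted p = 0.0016), with its 5 UMIs in the set all from EC-KO mouse 1, as was Icam2 (-0.95 ± 0.29 SE, adjusted p = 0.016). The 2 that rose were Jam2, at 1303, 715, 2000 and 989 CPM against 531, 688, 666 and 527 CPM (0.75 ± 0.23 SE, adjusted p = 0.016), and Afdn (afadin, an actin-binding partner of nectins, listed as Mllt4; 1.03 ± 0.34 SE, adjusted p = 0.030). Afdn was at 744, 414, 212 and 406 CPM against 172, 172, 216 and 147 CPM, and thus not higher in EC-WT mouse 1. In the 10 alternatives, Cgnl1, Gja4, Gja5, Lsr and Nectin1 were called in all 10, Cldn15 in 7, Heg1 in 6, Jam2 in 5, and Afdn and Icam2 in 4. The catenins Ctnnb1, Ctnna1, Ctnnd1 and Jup were tested and not called, with log2 fold changes from -0.33 to -0.11.

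**Figure D4:**
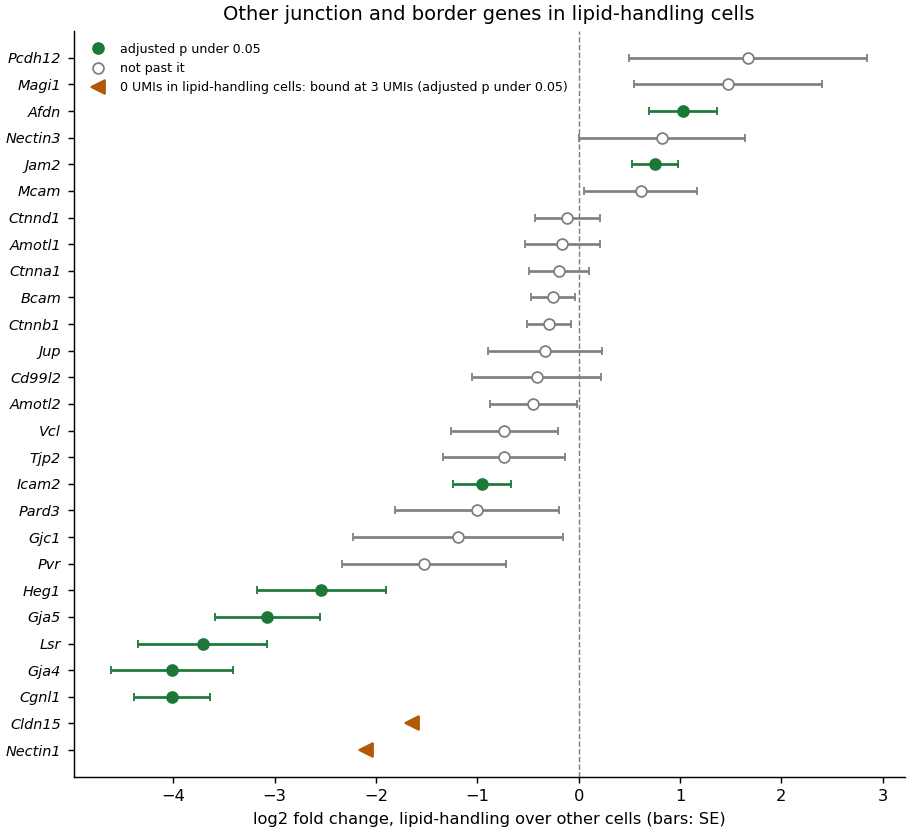
Log2 fold change between lipid-handling and other cells for the 27 tested genes of the wider list, with SE bars, ordered by value but for the triangles at the foot; green points have an adjusted p under 0.05 by edgeR with TMM. The orange triangles, Nectin1 and Cldn15, had 0 UMIs in the lipid-handling cells and mark the bound at 3 UMIs, taken from pooled CPM without TMM.

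Whether these differences depend on the genotype label was tested as an interaction. None of the 8 members was called, with 1 of 6376 genes called over all (0.0157%); 174 genes but no member had an unadjusted p under 0.05. Cdh13 had the largest interaction (log2 1.21, 95% interval -0.14 to 2.56), and that of Cldn5 was 0.0037 with an interval of -1.46 to 1.47. With 9 EC-KO and 15 EC-WT cells in the set, such intervals leave room for large differences.

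A further pair of comparisons within mice asks how the members go with transcripts that respond to blood flow. Klf2 and Klf4 encode transcription factors that are known to rise under steady high flow. In each mouse, cells outside the smooth muscle-rich set were taken in blocks of 3 neighbours in depth, and the cell with the highest share of Klf2 and Klf4 UMIs was set against the one with the lowest, which gave 140 cells a side. Where in the aorta a cell lay was not recorded, so these shares are not a measure of the flow at a cell. By the study's account the cells were freed by enzymatic digestion, and its effect on these transcripts was not tested. None of the 7 members tested was called, and 1 had an unadjusted p under 0.05, while 26 of 5274 genes were called (0.493%) by edgeR and 9 by DESeq2, none of them a member, and 425 had an unadjusted p under 0.05.

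Cldn5 was the member with the largest difference. It was at 515, 770, 682 and 418 CPM in the Klf-high cells of EC-KO mice 1 and 2 and EC-WT mice 1 and 2, and at 370, 289, 532 and 530 CPM in the Klf-low cells. It was higher in 3 of 4 mice and lower in EC-WT mouse 2 (log2 fold change 0.45 ± 0.19 SE, adjusted p = 0.53 by edgeR). Without EC-KO mouse 2 the difference was 0.15. F11r was higher in 4 of 4 mice, as were 9.52% of all genes, by 0.16 ± 0.15 SE on the log2 scale (adjusted p = 0.87). The other 5 lay between -0.29 (Tjp1) and 0.077 (Pecam1). The interaction with the genotype label had an unadjusted p under 0.05 for Cldn5 (0.86 ± 0.33 SE, adjusted p = 0.62) and Cdh13 (0.63 ± 0.31 SE, adjusted p = 0.84) and was called for no member, against 11 of 5274 genes (0.209%); 289 genes (5.48%) had an unadjusted p under 0.05.

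Edn1 (endothelin-1), Thbs1 (thrombospondin-1) and Cyr61 (a matrix-associated signalling protein) are genes known to be higher in disturbed or low flow. The limits given for Klf2 and Klf4 hold for these genes too. Cells high and low in their summed share, again from blocks of 3 neighbours in depth, gave 130 cells a side, after 10 blocks with a tie of the highest and the lowest cell were left out. By edgeR 47 of 5089 genes were called (0.924%), 397 had an unadjusted p under 0.05, and none of the 7 members tested was among the called. DESeq2 called 23 genes and no member.

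Cldn5 again differed most, and here in the direction opposite to its difference with Klf2 and Klf4. It was at 417, 286, 563 and 265 CPM in the Edn1-high cells and at 513, 598, 681 and 690 CPM in the Edn1-low cells, lower in 4 of 4 mice, as were 9.55% of all genes. The log2 fold change was -0.66 ± 0.18 SE (95% interval -1.02 to -0.30), just outside the threshold (adjusted p = 0.075 by edgeR, 0.17 by DESeq2). It passed in 4 of the 9 alternatives, and its adjusted p ranged from 0.020 to 0.46. Cells with a Cldn5 UMI made up 60.0% of the Edn1-high and 72.3% of the Edn1-low cells. Cdh5 was lower in 4 of 4 mice too, by only -0.083 ± 0.15 SE (adjusted p = 0.96), and the other 5 lay between -0.049 (Esam) and 0.11 (Cdh13). The interaction with the label was called for no member and for 0 of 5089 genes (0%); 242 genes, of which 1 was a member (Cdh13, 0.68 ± 0.31 SE, adjusted p = 0.99), had an unadjusted p under 0.05. The Klf and Edn1 comparisons drew on the same pool of cells and shared 183 of them (65.4% of the 280 Klf cells and 70.4% of the 260 Edn1 cells), so their values for Cldn5 are not independent of each other.

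**Figure D5:**
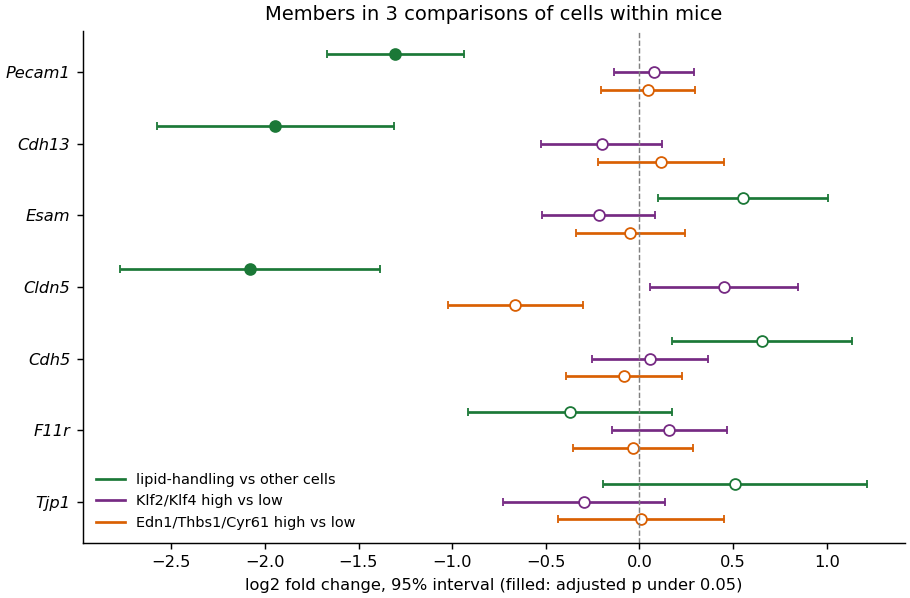
Log2 fold change with 95% interval for 7 members in the 3 comparisons of cells within mice: lipid-handling against other cells (green), high against low Klf2 and Klf4 (purple), and high against low Edn1, Thbs1 and Cyr61 (orange). Filled points passed an adjusted p of 0.05, which only Pecam1, Cdh13 and Cldn5 in the lipid-handling cells did.

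The wider list had 0 of 25 tested genes called in either comparison by edgeR and 0 by DESeq2, with 5 at an unadjusted p under 0.05 in each. Among its most abundant genes, Gja4 was lower in Klf-high cells (-0.39 ± 0.18 SE, adjusted p = 0.58 by edgeR). Ctnnd1 was higher in Klf-high cells (0.37 ± 0.17 SE, adjusted p = 0.60 by edgeR). Gja4 was higher in Edn1-high cells (0.72 ± 0.19 SE, adjusted p = 0.083), and Jam2 was at 524 ± 54.9 CPM in Edn1-high and 797 ± 159 CPM in Edn1-low cells (SD, n = 4, -0.54 ± 0.15 SE, adjusted p = 0.092). None of these values passed the threshold here. In the Edn1 comparison Jam2 passed in 2 of the 9 alternatives and Gja4 in 2.

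From cell to cell the members went together only weakly. With cells thinned to 2000 UMIs (358 cells), the mean over the 4 mice of the within-mouse correlation between 2 members lay between -0.089 (Cdh5 with Cldn5) and 0.11 (Esam with Tjp1) over the 21 pairs of the 7 members with enough UMIs, and 4 of the 21 had the same sign in every mouse. Such values are no finding in counts this sparse. The 5 genes outside the members that went most with their summed share, which is mainly Pecam1, were Clu (clusterin, a secreted chaperone), Sfrp1 (a secreted Wnt inhibitor), Cytl1 (a secreted cytokine-like protein), Fbln2 (fibulin-2, of the extracellular matrix) and Sod3 (the extracellular superoxide dismutase). Their mean correlations were 0.27, 0.26, 0.25, 0.25 and 0.24 over 906 genes compared, whose median was 0.018. In EC-KO mouse 1 they were 0.021 to 0.25 and in the other 3 mice 0.22 to 0.39, and all rest on cells that share a library.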

How the data were processed

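The aorta cells of 4 mice were analysed from the UMI count tables, 1 per plate, that the authors deposited for all wells without normalization. The authors also deposited read counts and transcript counts (expected counts, made by the authors by correcting UMI counts for the limited number of identifiers), which served as alternatives, rounded for the latter. The submitters' processing notes name BWA 0.7.15, Seurat and the build GRCm38 (mm10); the annotation is not given in the sources used here. ERCC and mitochondrial rows were left out of all sums. UMIs were summed per mouse, or per mouse and cell set, and all genes were tested with edgeR 4.0.16 (TMM, filter on low counts, quasi-likelihood test, Benjamini-Hochberg adjustment, called at 0.05), with the mouse as a block within mice; R was 4.3.3. DESeq2 1.42.0, other scalings, filters, cell limits and each mouse left out were the alternatives. No doublet caller was run, and an alternative dropped cells whose UMIs were over 3 times the median in that mouse. Python 3.11.15 (pandas 2.3.3, numpy 2.4.6, scipy 1.17.1, matplotlib 3.10.9) gave levels, thinning, shares and plots. Limits for a count of 0 are 3 UMIs of the total and cover counting error only.

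The 9 members, the wider list, the cell sets and the tests were chosen with earlier results of these data known. The text names the 9 members, Epas1, the genes of the wider list that edgeR called in a comparison or are among its 10 most abundant, and the 5 genes most correlated with the summed share; Jup, Jam3, Vcl and Pcdh17 were named after their values were seen. On simulated data with 100 genes changed by 1 and 100 by 2 on the log2 scale, the lipid-handling comparison (6376 genes) recovered 8 and 41 with 3 other genes called, the Klf comparison (5274 genes) 63 and 94 with 8 others, and the Edn1 comparison (5089 genes) 64 and 95 with 7 others. Positions are from GENCODE M21. All 384 well barcodes are shared by the 4 plates, by design, and no 2 kept cells held the same counts.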

Additional observations from a re-analysis of the deposited data

Results flagged for a closer look

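Rows L to P of the plates, 480 wells in all, held no kept cell (median 47 UMIs per well) and entered no comparison, yet UMIs of 6 members were found there above the 3 that a count of 0 allows. There were 150 UMIs of Pecam1, in 103 of the 480 wells (21.5%), 22 of Esam, 14 of F11r, 9 of Cldn5, 8 of Cdh13 and 4 of Cdh5. In CPM of the nuclear UMIs of those wells, Pecam1 was at 5210, Esam at 764, F11r at 486, Cldn5 at 313, Cdh13 at 278 and Cdh5 at 139.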

How the results depend on the processing

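No member was called between the genotype labels in any of the 16 alternatives, the replicate block included (0 called with the replicate block; same-numbered mice did not deviate together, correlation -0.049, so the numbers were not taken as pairs). Cdh5, F11r and Tjp1 were lower in the EC-KO mice in all 16, Cdh5 by -0.64 to -0.30. The other uncalled members changed sign in places. Pecam1 was at -0.0053 (DESeq2), -0.026 (library size only) and -0.0050 (minimum of 500 UMIs), and from -0.21 to 0.23 with a mouse left out. Cldn5 was at 0.012 without cells over 3 times the median UMIs and at 0.061 without smooth muscle-rich cells. Ocln was at 0.29 (minimum of 2000 UMIs) and 0.010 (without smooth muscle-rich cells), and Cdh13 at 0.18 without cells over 3 times the median. With a mouse left out, Cldn5 ranged from -0.18 to 0.15, Esam from -0.37 to 0.026, Ocln from -0.63 to 0.61 and Cdh13 from -0.68 to 0.27.

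In the lipid-handling cells 3 members were called, and 4 with a limit of 0.5% of UMIs for the set (Gja1 added). There were 6 with library size only (Cdh5, Esam and Gja1 added) and 5 with no replicate block (Cdh5 and Esam added). With the mouse left out of the model or TMM left out, the call of Cdh5 and Esam thus changes; Gja1, with 7 UMIs in the set, passes the filter only through that set, and nothing is read from its calls. The wider list had 10 genes called, 6 by DESeq2 and 7 to 10 in the other alternatives. Of the 6, 5 are among the 10, and Pcdh17 (a protocadherin), below edgeR's filter on low counts, is not. In the Edn1 comparison Cldn5 was the 1 member called with library size only, a minimum of 2000 UMIs, no filter on low counts, and without EC-WT mouse 1; with a mouse left out the count ranged from 0 to 1. Pecam1 there was at -0.0045 (library size only) and -0.0073 (minimum of 2000 UMIs), and Tjp1 at -0.0064 (DESeq2), -0.043 (library size only), -0.15 (minimum of 2000 UMIs) and -0.0012 (no replicate block). With a mouse left out Pecam1 ranged from -0.067 to 0.13, Esam from -0.11 to 0.0036, F11r from -0.17 to 0.031, Tjp1 from -0.15 to 0.18 and Cdh13 from -0.10 to 0.27, and in the Klf comparison Pecam1 from -0.021 to 0.19 and Cdh5 from -0.012 to 0.098. Members with a UMI in over 50% of the cells of every mouse numbered 7, and 1 (Pecam1) at 1000 UMIs per cell. The order of levels kept its 4 separate steps without smooth muscle-rich cells and had 3 under the other alternatives. The causes were not tested.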
